A study of Pleurotus tuoliensis with 9 samples.

Results

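Copper radical oxidases were examined in *Pleurotus tuoliensis* mycelia as the unigenes whose description contains "copper radical oxidase" or "glyoxal oxidase". This rule found 9 of the 13953 unigenes in the count table, all described as copper radical oxidase and none as glyoxal oxidase. Of these, gene_422 was chosen by its measured levels in these same libraries, so its values are given as a description with no test. The other 8 were matched by their description, with earlier results of these data known. A unigene is a transcript locus of the assembly that matches a protein-coding sequence of the reference genome, and its name is that of the best protein match.

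The mycelia were of the strain Zhongnong No.1, grown in the dark on potato dextrose agar at 25 °C for 9 days. Control plates (CK) then stayed at 25 °C, while plates of moderate heat stress (MHT) and severe heat stress (SHT) were moved to 32 °C and 36 °C on day 10. All were sampled on day 13, after 96 h of treatment. Each group had 3 RNA-seq libraries from individual plates, and all inocula were cut from 1 initial plate, which makes the replicates parallel cultures from 1 source. The samples are bulk mycelium scraped from plates, in which less RNA of a gene per cell and fewer cells that make it cannot be told apart. The labels name only mycelial cells, and of 5 unigenes described as hydrophobins, the surface proteins of fungal hyphae, gene_22549 had 439 to 3017 counts per library. The other hydrophobins had far fewer, with 13 to 121 counts in gene_6238, 8 to 29 in gene_8573, 2 to 12 in gene_13865 and 0 to 10 in gene_13869, which did not pass the filter on zero counts. The descriptions do not tell hydrophobins of vegetative mycelium from those of fruit bodies.

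Copper radical oxidases are secreted or wall-bound fungal enzymes with a copper ion beside a tyrosine radical in the active site. They oxidise small aldehydes such as glyoxal and methylglyoxal, or alcohols in the related galactose oxidases, and pass the electrons to oxygen, which yields hydrogen peroxide outside the cell. In wood-decay fungi that peroxide is known to feed the peroxidases that attack lignin, and in the white-rot fungus *Phanerochaete chrysosporium* glyoxal oxidase is made together with lignin peroxidase.

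The libraries held 3925786 to 6180053 counts over all unigenes. Levels are given as CPM, counts scaled to a common library size, after TMM scaling for composition, and they are compared between libraries, since transcript lengths were not used here. Shares and ranks of unigenes by count are shares and ranks of reads, which depend on transcript length, and are no comparison of transcript levels. The quasi-likelihood test of edgeR was run on the 13018 unigenes that had counts in every one of the 9 libraries. A unigene was called where its adjusted p was under 0.05 and its absolute log2 fold change above 1, and P-values were adjusted by Benjamini-Hochberg over all unigenes (SE, standard error of a log2 fold change). Of the 9 oxidases 8 passed the filter, gene_422 and 7 others, and gene_24804 did not. Some libraries stood apart over all tested unigenes. In MHT, replicate 3 had a mean Euclidean distance of log2 CPM of 73.4 to the other MHT libraries, against 59.5 and 57.3 for replicates 1 and 2, and lay 73.2 from SHT, where replicates 1 and 2 lay 91.8 and 85.8 away. In CK, replicate 2 was the nearest to the heated groups, with mean distances of 83.1 to MHT and 104 to SHT, against 88.1 to 93.3 and 117 to 119.6 for the other CK libraries.

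The best match of gene_422 is a protein deposited for *Salix suchowensis*, a willow, as is that of 607 unigenes of the table, while the other 8 oxidases match *Pleurotus eryngii*. The 9 unigenes match 7 distinct proteins. gene_15100 and gene_15101 share 1 of them and gene_16748 and gene_16749 share another. Both pairs are adjacent in ID number, so their members may be parts of 1 gene and are uncertain as separate genes.

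gene_422 was low in CK, highest in MHT and intermediate in SHT. In CK it was at 199 CPM in replicate 1, 884 in replicate 2 and 274 in replicate 3. In MHT the libraries were at 5400 CPM, 9060 CPM and 5524 CPM. In SHT they were at 2291 CPM, 2701 CPM and 1086 CPM. No group overlapped another, which is no result, since gene_422 was chosen by these levels. The distance between neighbouring groups was uneven. The lowest MHT library was 6.11 times as high as the highest CK library and 2.0 times as high as the highest SHT library. The lowest SHT library was only 1.23 times as high as CK replicate 2. The means were 452 ± 376 CPM in CK, 2026 ± 839 in SHT and 6661 ± 2078 in MHT (SD, n = 3).

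The log2 fold change of gene_422 was 3.88 in MHT&CK, which is MHT relative to CK, the 9th highest of the 13018 unigenes tested. It was 2.16 in SHT&CK, SHT relative to CK, where it ranked 197th, and -1.72 in SHT&MHT, SHT relative to MHT. These are the values by which the unigene was chosen. Both values against CK depended on which CK libraries were used: without CK replicate 2 they became 4.82 and 3.10, and without the other CK replicates in turn they were 3.55 and 3.62 in MHT&CK and 1.82 and 1.90 in SHT&CK. Without SHT replicate 3, the lowest of its group, the value in SHT&MHT was -1.42, and without SHT replicate 2 it was -1.99. CK replicate 2 was the highest CK library for this unigene, so leaving it out had to raise both values, and the part of that library's position in them was not tested.

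The spread of gene_422 within CK was among the widest of the table. CK replicate 2 was 4.45 times as high as replicate 1 and 3.22 times as high as replicate 3. The SD of its log2 CPM over the CK libraries was 1.13, larger than in 99.2% of the unigenes tested, whose median was 0.213. In SHT it was 0.70, larger than in 94.6% of unigenes, and in MHT 0.42, larger than in 71.5%. The other 7 tested oxidases had SDs of 0.08 to 0.19 in CK, all below the median of all unigenes, so the high reading of CK replicate 2 was not shared by the family.

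**Figure D1:**
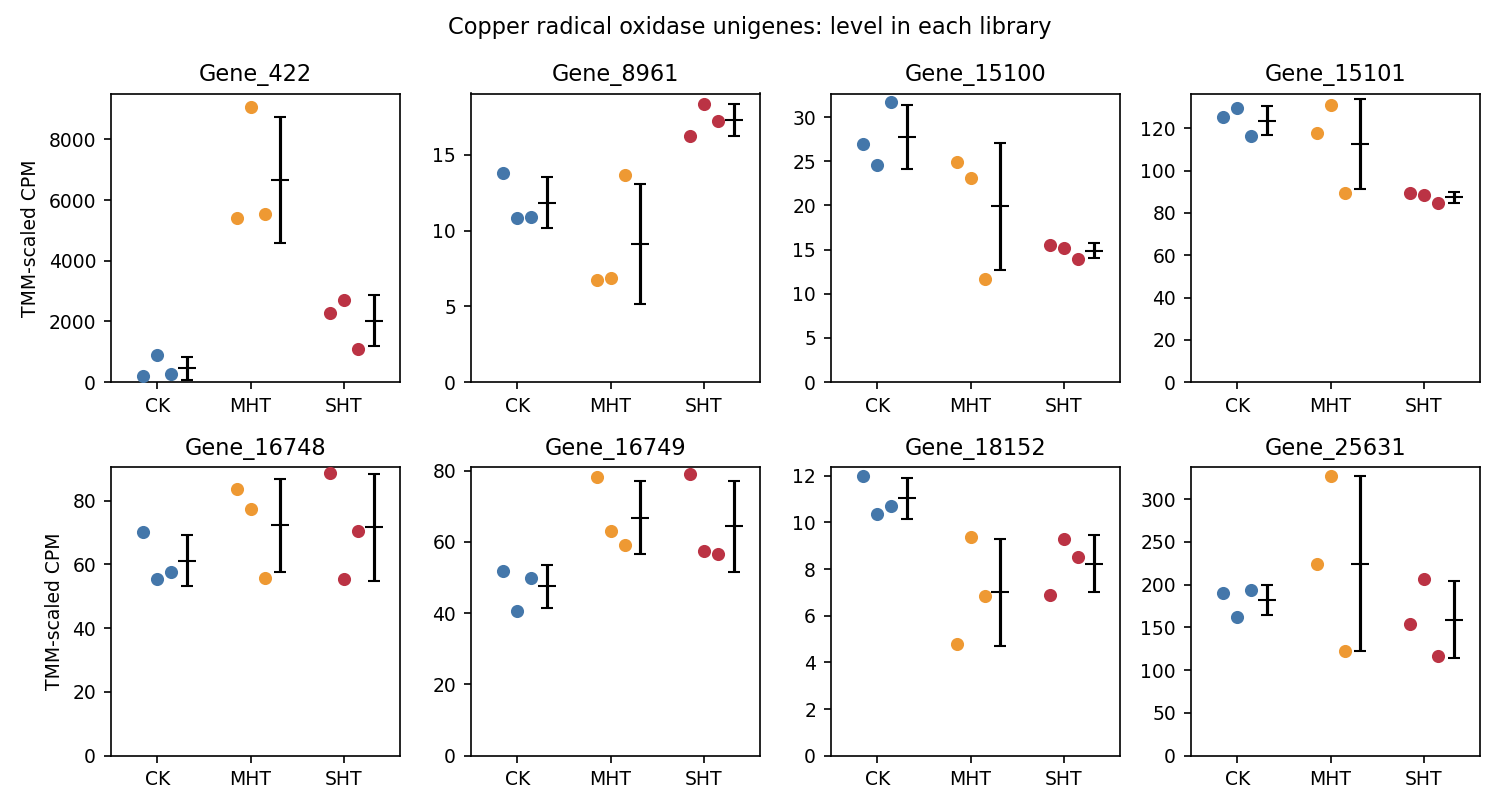
TMM-scaled CPM (vertical axes, each from 0 and on its own scale) of the 8 tested copper radical oxidase unigenes in CK, MHT and SHT, with 1 point per library and a black bar for mean ± SD (n = 3). For gene_422 the MHT points lie at 5400 to 9060 CPM, while the lowest SHT point, at 1086 CPM, lies close to the highest CK point, at 884 CPM. MHT replicate 3 (the rightmost MHT point) sits apart from the other MHT points in gene_8961 and gene_15100.

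gene_422 held most of the family's counts in the heated libraries. It took 0.0173% to 0.0832% of all counts in the CK libraries, 0.530% to 0.911% in MHT and 0.117% to 0.299% in SHT. By count it was the 2nd to 4th highest unigene of each MHT library, the 11th to 59th in SHT and the 107th to 1080th in CK, an order that also depends on transcript length. Its share of the counts of all 9 oxidases was 28.8% in CK replicate 1, 67.1% in replicate 2 and 36.8% in replicate 3, and it was 90.9% to 93.9% in MHT and 74.7% to 85.7% in SHT. The mean share was 44.2% ± 20.2 at 25 °C, 92.7% ± 1.61 at 32 °C and 81.3% ± 5.85 at 36 °C (SD, n = 3). Without CK replicate 2 the mean share in CK was 32.8%.

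The summed level of the other 8 oxidases overlapped between groups. It averaged 465 ± 29.1 CPM at 25 °C, 513 ± 142 CPM at 32 °C and 424 ± 47.6 CPM at 36 °C (SD, n = 3). The libraries were at 434 to 491 CPM in CK, 359 to 638 in MHT and 369 to 451 in SHT, so that the range of MHT contained that of each other group. The highest sum was in MHT replicate 2 and the lowest in MHT replicate 3.

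**Figure D2:**
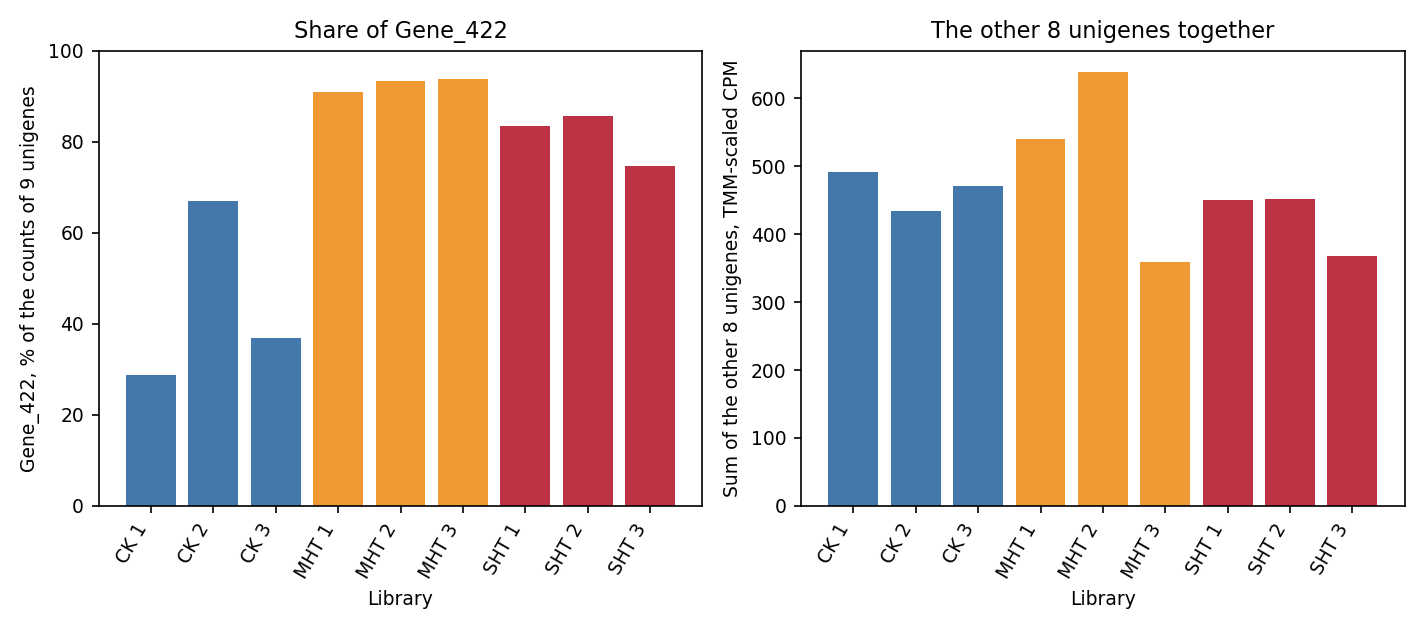
Left, the counts of gene_422 as a percentage of the counts of all 9 copper radical oxidase unigenes in each library. Right, the summed TMM-scaled CPM of the other 8 unigenes, with bars coloured by group. The share is 28.8% to 67.1% in CK and 90.9% to 93.9% in MHT, while the summed level of the others stays between 359 and 638 CPM.

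None of the 7 other tested oxidases was called in any comparison by edgeR's quasi-likelihood test, and DESeq2 also called 0 in each. Over all 13018 unigenes 8.17% were called in MHT&CK (3.85% higher and 4.32% lower), 21.7% in SHT&CK (10.8% higher and 10.9% lower) and 5.65% in SHT&MHT (2.79% higher and 2.87% lower). By adjusted p alone, 0 of the 7 passed in MHT&CK, where 14.9% of all unigenes did, 2 in SHT&CK beside 40.1%, and 0 in SHT&MHT beside 9.75%. Before adjustment, 2 of the 7 had a p under 0.05 in MHT&CK, 3 in SHT&CK and 1 in SHT&MHT. Their median log2 fold changes were -0.13, -0.20 and -0.05, beside medians over all unigenes of -0.00, 0.01 and -0.00. They split in direction, with 3 of the 7 positive in MHT&CK, 3 in SHT&CK and 2 in SHT&MHT. Their 95% intervals, which are not adjusted for the number of unigenes, together reached from -1.25 to 0.97 in MHT&CK, from -1.47 to 1.15 in SHT&CK and from -1.16 to 1.53 in SHT&MHT. Where groups are said above or below not to overlap, this only describes the libraries. The share of all unigenes that separate likewise is not given here.

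gene_15100 and gene_15101, the pair that shares 1 matched protein, were lowest in SHT. gene_15100 was at 27.0 CPM, 24.6 CPM and 31.7 CPM in CK, 24.9 CPM, 23.1 CPM and 11.7 CPM in MHT, and 15.5 CPM, 15.2 CPM and 13.9 CPM in SHT. Every SHT library was below every CK library, and MHT replicate 3 was below all of them. Its log2 fold change in SHT&CK was -0.90 (SE 0.263, edgeR adjusted p = 0.0173), which is under the p threshold but short of the threshold on fold change. In MHT&CK it was -0.47 (edgeR adjusted p = 0.233) and -0.21 without MHT replicate 3.

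gene_15101 had the smallest spread of the family in SHT. It was at 125 CPM, 129 CPM and 116 CPM in CK, 118 CPM, 131 CPM and 89.4 CPM in MHT, and 89.4 CPM, 88.3 CPM and 84.6 CPM in SHT. CK and SHT did not overlap, and MHT replicate 3 again lay at the level of SHT. Its log2 fold change in SHT&CK was -0.50 (SE 0.172, edgeR adjusted p = 0.0358). These were the 2 of 7 oxidases with an adjusted p under 0.05. In gene_15101 it was over 0.05 without any 1 of the 6 CK and SHT libraries, in a range of 0.00826 to 0.0993 over the alternatives, and in gene_15100 without CK replicate 3 or SHT replicate 3, in a range of 0.00160 to 0.0708. Summed as 1 unit, the pair had -0.57 in SHT&CK (edgeR adjusted p = 0.024).

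gene_16748 and gene_16749, the other pair, had higher means under heat that did not pass the test. gene_16749 was at 51.9 CPM, 40.7 CPM and 50.0 CPM in CK, 78.4 CPM, 63.0 CPM and 59.3 CPM in MHT, and 79.1 CPM, 57.4 CPM and 56.6 CPM in SHT. All heated libraries were above all CK libraries. Its log2 fold changes were 0.50 in MHT&CK (SE 0.198, edgeR adjusted p = 0.111) and 0.44 in SHT&CK (edgeR adjusted p = 0.0927), and both fail the correction for all unigenes. gene_16748 was at 70.3 CPM, 55.5 CPM and 57.6 CPM in CK, 83.7 CPM, 77.4 CPM and 55.8 CPM in MHT, and 88.8 CPM, 55.5 CPM and 70.5 CPM in SHT. Here the groups overlapped, and the log2 fold changes were 0.24 in MHT&CK and 0.23 in SHT&CK, with intervals from -0.23 to 0.72 and from -0.24 to 0.70. Between the heat treatments the values of this pair were -0.01 and -0.05, and their sign turned when single libraries were left out.

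gene_8961 had its highest level in SHT. It was at 13.8 CPM, 10.8 CPM and 10.9 CPM in CK, 6.76 CPM, 6.85 CPM and 13.7 CPM in MHT, and 16.3 CPM, 18.4 CPM and 17.2 CPM in SHT. Every SHT library was above every library of the other groups, while MHT replicate 3 was about as high as CK replicate 1 and the other MHT libraries were lower. In SHT&MHT its log2 fold change was 0.93 (SE 0.276, edgeR adjusted p = 0.0511), just short of both thresholds. Without MHT replicate 3 it was 1.34 and passed (edgeR adjusted p = 0.00321, in a range of 0.00321 to 0.208 over the alternatives). In SHT&CK it was 0.55 (edgeR adjusted p = 0.127). This order, with MHT lowest and SHT highest, is not that of gene_422.

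gene_18152 had its highest levels in CK. It was at 12.0 CPM, 10.4 CPM and 10.7 CPM in CK, 4.78 CPM, 9.38 CPM and 6.83 CPM in MHT, and 6.90 CPM, 9.28 CPM and 8.52 CPM in SHT. All heated libraries were below all CK libraries. The log2 fold changes were -0.65 in MHT&CK (SE 0.275, edgeR adjusted p = 0.127) and -0.42 in SHT&CK (edgeR adjusted p = 0.229), neither past the threshold. Its 29 to 52 counts per library limit the precision, and the interval in MHT&CK ran from -1.25 to -0.06.

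gene_25631 varied most among the MHT libraries. It was at 191 CPM, 162 CPM and 194 CPM in CK, 225 CPM, 327 CPM and 122 CPM in MHT, and 154 CPM, 206 CPM and 117 CPM in SHT. The groups overlapped, and the highest MHT library was 2.68 times the lowest. Its log2 fold changes were 0.30 in MHT&CK (SE 0.306, edgeR adjusted p = 0.539), -0.20 in SHT&CK and -0.50 in SHT&MHT. The first turned to -0.08 without MHT replicate 2 and was 0.60 without MHT replicate 3.

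**Figure D3:**
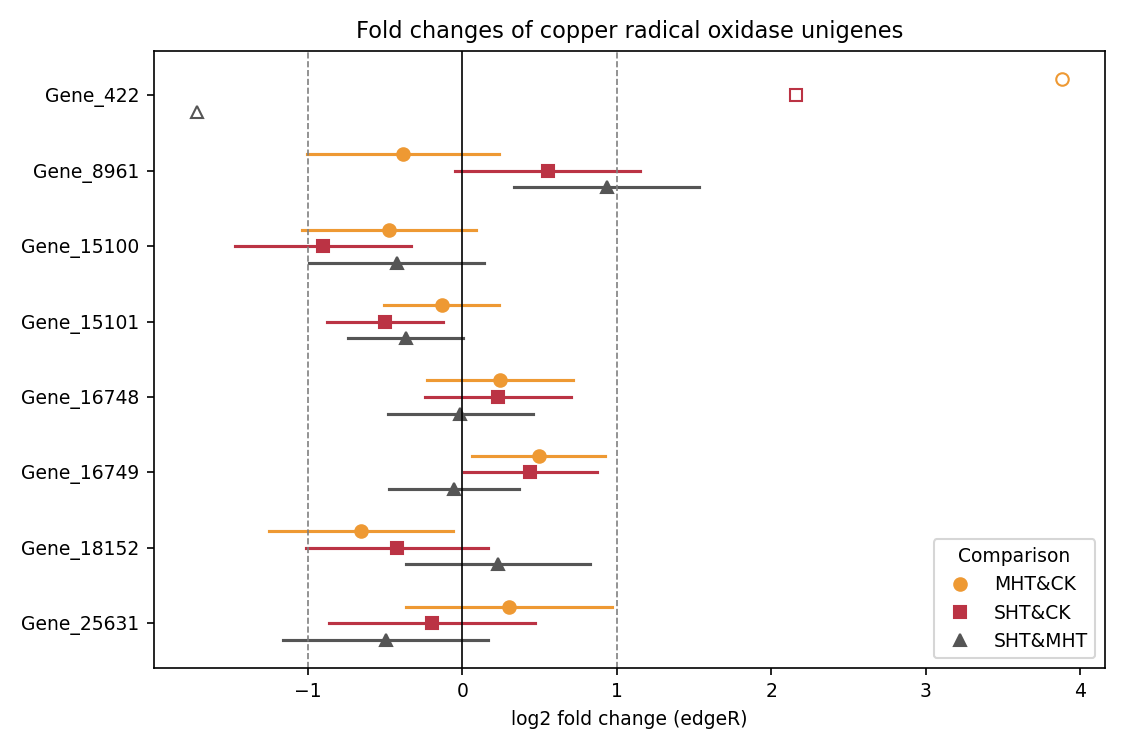
edgeR log2 fold changes (horizontal axis) of the 8 tested unigenes in MHT&CK (circles), SHT&CK (squares) and SHT&MHT (triangles), with unadjusted 95% intervals for the 7 unigenes matched by description and open symbols without interval for gene_422. Dashed lines mark the threshold of 1 in each direction. gene_422 lies at 3.88 in MHT&CK, 2.16 in SHT&CK and -1.72 in SHT&MHT, while the values of the other 7 unigenes lie between -0.90 and 0.93.

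gene_24804 was near the limit of detection. It had 0 counts in all 3 CK libraries, 0, 3 and 1 in MHT, and 5, 5 and 1 in SHT. The 0 counts over CK allow a level of up to 0.236 CPM, taking 3 counts over the group as the floor, and this covers counting error only. Against that floor its 11 counts in SHT, 0.639 CPM, were 2.71-fold higher. That ratio is no lower bound, since the counting error of the 11 counts is not in it. Kept in the fit without a filter, it had adjusted p = 0.0591 in SHT&CK (edgeR) and was not called.

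MHT replicate 3 moved with several of these results. For gene_15100, gene_15101, gene_16748, gene_16749 and gene_25631 it was the lowest MHT library, and for gene_8961 the highest. In gene_422 it was at 5524 CPM, close to MHT replicate 1. The part of this library's position, nearer to SHT over all unigenes, in the values of the other oxidases was not tested.

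The 4 unigenes described as galactose oxidases, relatives of the copper radical oxidases that oxidise an alcohol group of sugars, lie just outside the rule. gene_12317, which also matches a *Salix suchowensis* protein, averaged 196 ± 15.7 CPM at 25 °C, 157 ± 11.8 CPM at 32 °C and 177 ± 12.4 CPM at 36 °C (SD, n = 3) and was not called. gene_3949 averaged 86.8 ± 9.43 CPM in CK and 42.0 ± 7.38 CPM in SHT and fell between them by 1.05 on the log2 scale (SE 0.245, edgeR adjusted p = 0.0057). Without CK replicate 1 or SHT replicate 3 this call was lost and 0 of the 4 passed. gene_10427 had log2 fold changes of 0.62 and 0.90 against CK, and gene_8665 had -0.53 and -0.71, neither called. In MHT&CK and in SHT&MHT 0 of the 4 were called by edgeR or DESeq2, with an unadjusted edgeR p under 0.05 in 1 and 1. Over all unigenes 8.17% were called in MHT&CK, 5.65% in SHT&MHT and 21.7% in SHT&CK.

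Of 13010 unigenes outside the family, those most like gene_422 over the 9 libraries were sought by the Pearson correlation of log2 CPM. These values describe likeness only, since the points share 3 groups and the same libraries. gene_2796, a zinc cluster transcription factor of the fungal DNA-binding type, was the likest of all (r = 0.98), followed by gene_6020, an acetyl-CoA synthetase-like protein (r = 0.97), and gene_20223, an ArfGap-domain protein of the regulators of vesicle traffic (r = 0.96). gene_15050, a class 2 chitin synthase that makes wall chitin, and gene_26363, described as an amidase signature enzyme, had r = 0.94 and r = 0.93. They were the 6th and 13th likest of all. The study annotated gene_26363 as part of the GatFAB amidotransferase complex. Among the 20 likest, 7 had an informative description. Without CK replicate 2 the 5 values were 0.98, 0.97, 0.97, 0.95 and 0.93, while by Spearman's rho gene_15050 ranked 29th among the 3086 unigenes with an informative description.

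These unigenes were chosen by their likeness to gene_422 in these same libraries, so that they share its order is no result. Their differences were smaller than those of gene_422. gene_2796 was at 33.1 CPM, 47.0 CPM and 30.1 CPM in CK, 99.7 CPM, 116 CPM and 87.2 CPM in MHT, and 58.3 CPM, 62.7 CPM and 48.1 CPM in SHT. CK replicate 2 was the highest CK library and MHT replicate 2 the highest of all, as in gene_422. gene_15050 was at 17.6 CPM, 57.8 CPM and 27.9 CPM in CK, 144 CPM, 111 CPM and 81.8 CPM in MHT, and 92.0 CPM, 76.5 CPM and 47.0 CPM in SHT. Here CK replicate 2 was above SHT replicate 3, so that those groups overlapped. In MHT&CK the log2 fold changes of the 5 ran from 1.06 to 1.69, against 3.88 for gene_422. The other oxidases had r from -0.68 in gene_18152 to 0.60 in gene_16749. They were not chosen by r, so their values and those of the 5 are no like comparison.

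**Figure D4:**
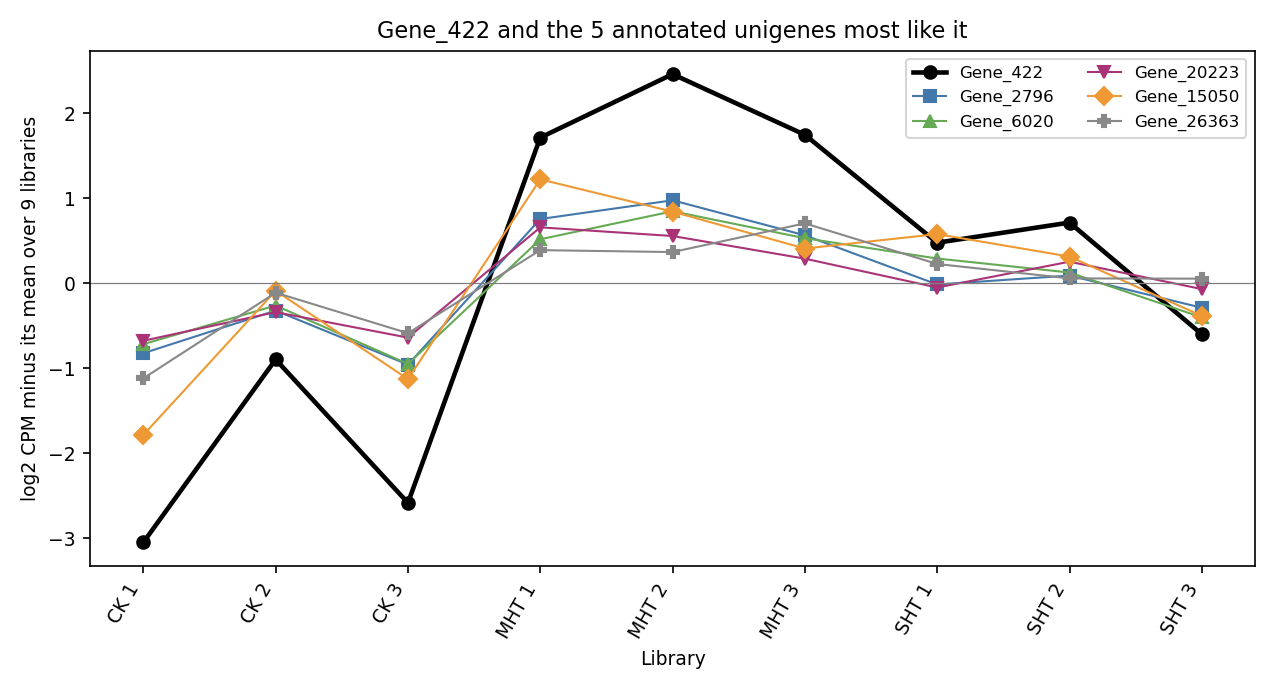
log2 CPM minus its mean over the 9 libraries (vertical axis) for gene_422, in black, and the 5 unigenes with an informative description most like it, by library. All 6 lines are lowest in CK replicates 1 and 3 and highest in a MHT library, and gene_422 spans the widest range. The 5 were chosen by this likeness, so the shared shape follows from the choice.

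Enzymes that make, use or remove hydrogen peroxide were listed by their descriptions. Beyond 1 or 2 unigenes of each list set by rule, those named were named after their values had been seen. Of 10 tested peroxidases 1 was called higher and 1 lower in MHT&CK, 2 higher and 3 lower in SHT&CK, and 1 lower in SHT&MHT. gene_7345, described as a heme peroxidase and annotated by the study as a mitochondrial cytochrome-c peroxidase, which is not a secreted enzyme, averaged 8.73 ± 7.47 CPM at 25 °C, 54.3 ± 30.3 CPM at 32 °C and 116 ± 53.9 CPM at 36 °C (SD, n = 3). It rose by 2.59 on the log2 scale in MHT&CK (SE 0.608, edgeR adjusted p = 0.0197) and by 3.69 in SHT&CK. The former call was lost without CK replicate 3 (2.38) or MHT replicate 3 (2.02). gene_20017, a short manganese peroxidase of the class that attacks lignin, averaged 14.8 ± 4.33 CPM at 25 °C, 5.59 ± 0.555 CPM at 32 °C and 5.33 ± 1.14 CPM at 36 °C, with log2 fold changes of -1.40 and -1.46 against CK. The heme peroxidases gene_26862, higher, and gene_22356 and gene_26672, lower, were the others called in SHT&CK. gene_22356 was also the one called in SHT&MHT. Its call in SHT&CK was lost without any 1 of 8 libraries, all but SHT replicate 2, and that in SHT&MHT without MHT replicate 1 or 2 or SHT replicate 1 or 3. gene_26862 was lost without CK replicate 2 or 3 or SHT replicate 1, and the total of 5 was then 3. In SHT&MHT the list had 3 called without MHT replicate 3 or SHT replicate 2.

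No enzyme of the GMC type and no laccase was called higher in MHT&CK, where 3.85% of all unigenes were called higher and 4.32% lower. The list of GMC oxidases, which are flavin enzymes, held aryl-alcohol oxidases, which also release hydrogen peroxide. It also held gene_11425, a pyranose dehydrogenase, whose description is not that of an oxidase. Of the 5 tested, 0 were called in MHT&CK by edgeR or DESeq2, and 1, gene_11425, had an unadjusted p under 0.05. gene_12175, described as aryl-alcohol oxidase-like, averaged 37.5 ± 38.4 CPM at 25 °C, 41.0 ± 21.1 CPM at 32 °C and 252 ± 173 CPM at 36 °C (SD, n = 3). Its log2 fold change of 2.74 in SHT&CK passed (SE 0.891, edgeR adjusted p = 0.039) but lost its call without any 1 of 7 libraries, all but CK replicate 2 (4.04) and SHT replicate 2 (3.21). Of 6 laccases, multicopper enzymes that oxidise phenols, 0 were called in MHT&CK by edgeR or DESeq2 and 1 had an unadjusted p under 0.05. Without CK replicate 1 or MHT replicate 2, 1 laccase passed there. Laccase 6, gene_26070, averaged 1145 ± 61.4 CPM at 25 °C, 1387 ± 180 CPM at 32 °C and 447 ± 183 CPM at 36 °C, and on the log2 scale fell by 1.36 in SHT&CK and fell by 1.63 in SHT&MHT. The other laccases called were gene_26061, lower in SHT&CK, and gene_17947, higher in SHT&MHT. The call of gene_17947 was lost without any 1 of the MHT libraries, SHT replicate 1 or SHT replicate 3. Over all unigenes 10.8% were called higher and 10.9% lower in SHT&CK, and 2.79% higher and 2.87% lower in SHT&MHT.

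Of 2 catalases, which break down hydrogen peroxide, gene_6329 averaged 1345 ± 131 CPM at 25 °C, 666 ± 124 CPM at 32 °C and 881 ± 163 CPM at 36 °C (SD, n = 3). It fell by 1.02 on the log2 scale in MHT&CK (SE 0.219, edgeR adjusted p = 0.00949). It was called lower there, as were 4.32% of all unigenes. It no longer passed when CK replicate 3 (-0.94) was left out, nor without MHT replicate 3 (-0.93) or MHT replicate 1 (-0.95). The other, gene_154, was not called, at 38.0 ± 48.4 CPM in the controls, 125 ± 89.0 CPM under moderate and 205 ± 124 CPM under severe heat. Without CK replicate 1 it passed in MHT&CK and in SHT&CK.

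Of 4 unigenes for copper uptake and handling, 0 were called in any comparison by edgeR or DESeq2, with an unadjusted edgeR p under 0.05 in 2 in MHT&CK, 1 in SHT&CK and 0 in SHT&MHT. Beside them, 8.17% of all unigenes were called in MHT&CK, 21.7% in SHT&CK and 5.65% in SHT&MHT. gene_26684, a P-type ATPase that pumps copper, averaged 1536 ± 157 CPM at 25 °C, 888 ± 194 CPM at 32 °C and 777 ± 98.5 CPM at 36 °C (SD, n = 3). Its log2 fold changes of -0.79 (edgeR adjusted p = 0.0314) and -0.98 (edgeR adjusted p = 0.0047) against CK were short of the fold threshold. The latter passed without CK replicate 2 (-1.07), SHT replicate 1 (-1.07) or SHT replicate 3 (-1.02). Among 4 other copper enzymes, gene_23793, a copper amine oxidase, averaged 22.6 ± 1.21 CPM at 25 °C, 9.94 ± 1.14 CPM at 32 °C and 10.1 ± 1.67 CPM at 36 °C. It fell by 1.18 on the log2 scale in MHT&CK (SE 0.210, edgeR adjusted p = 0.00347) and fell by 1.16 in SHT&CK, with no call lost when single libraries were left out. gene_19662, of glycoside hydrolase family 61, was also lower in SHT&CK, a call lost without CK replicate 1 or 2, MHT replicate 1 or SHT replicate 1 or 3.

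Of 8 tested enzymes of aldehyde and oxalate metabolism, 0 were called in MHT&CK by edgeR or DESeq2, with an unadjusted p under 0.05 in 3, and 3 were higher in SHT&CK. The share of all unigenes called was 8.17% in MHT&CK, and 10.8% were called higher in SHT&CK. gene_15082, an aldehyde dehydrogenase, averaged 328 ± 68.2 CPM at 25 °C, 245 ± 40.4 CPM at 32 °C and 743 ± 244 CPM at 36 °C (SD, n = 3). It rose by 1.18 on the log2 scale in SHT&CK (SE 0.262, edgeR adjusted p = 0.00416) and by 1.60 in SHT&MHT. Without SHT replicate 3 the former was 0.93 and not called, and 1 of the 8 passed. gene_15081, its neighbour in ID number, had 1.48 and 1.69. gene_8446 had 1.07 in SHT&CK, a call lost without CK replicate 2 or 3 or any 1 of the SHT libraries.

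**Figure D5:**
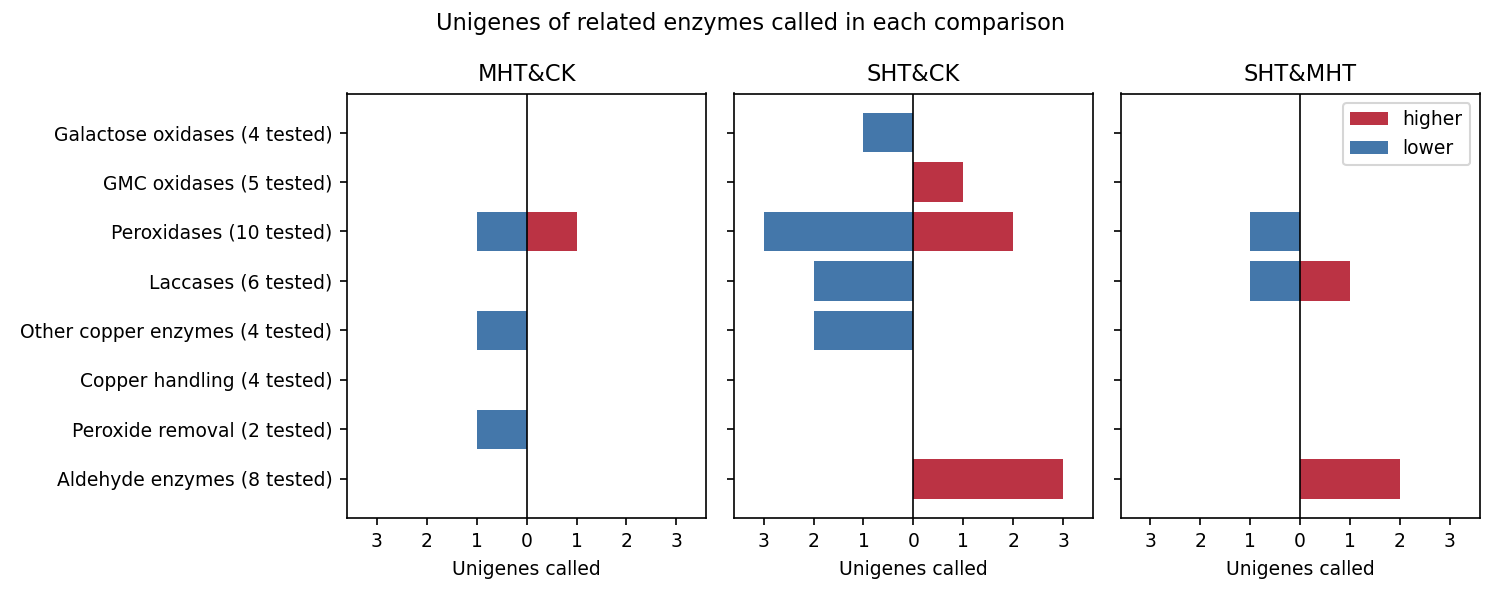
Number of unigenes called higher (red, right of 0) or lower (blue, left of 0) in each comparison, for 8 lists of related enzymes with the number tested in brackets. In MHT&CK 1 unigene, a peroxidase, is higher and 3 are lower, where 3.85% of all unigenes were called higher and 4.32% lower. In SHT&CK the peroxidases have 2 higher and 3 lower and the aldehyde enzymes 3 higher, beside 10.8% higher and 10.9% lower over all unigenes.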

How the data were processed

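RNA-seq libraries of CK, MHT and SHT mycelia, 3 per group, were analysed. The authors kept reads of 75 bp or longer (fastp), discarded rRNA reads (Bowtie2), aligned to a *P. tuoliensis* genome (HISAT2) and assembled transcripts (StringTie). The deposited table holds raw counts, whole numbers with no normalization. For tool versions and strand, the answer is not given in the sources used here. Identical libraries were looked for and none was found.

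TMM scaling and the fit used edgeR 4.0.16 in R 4.3.3 (quasi-likelihood, robust, group as only term, 9 libraries), over the 13018 unigenes with no zero count, the zero-count filter of the study. Adjusted p-values are Benjamini-Hochberg values across that set. Log2 CPM used a prior count of 2. The members and lists were chosen with earlier results of these data known. Oxidases were all named. Of each list, up to 3 unigenes called in MHT&CK with the largest change, or otherwise the one with the highest mean CPM, were named, and for likeness the 5 with an informative description and the highest r. Alternatives were DESeq2 1.42.0, other scalings and filters, fewer groups in the fit, the replicate number as a block, single libraries left out, no fold threshold and neighbours summed.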

Additional observations from a re-analysis of the deposited data

How the results depend on the processing

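The other 7 oxidases stayed uncalled in all alternatives, except that gene_8961 passed in SHT&MHT without MHT replicate 3 and that without a fold threshold 2 passed in SHT&CK. With single libraries left out, those called numbered 0 to 0 in MHT&CK, 0 to 0 in SHT&CK and 0 to 1 in SHT&MHT. The log2 fold change of gene_422 kept its sign throughout, from 3.55 to 4.82 in MHT&CK, 1.82 to 3.10 in SHT&CK and -1.99 to -1.42 in SHT&MHT. It was chosen by these values in the same libraries, so the kept sign is no test of them. DEGs numbered 1940, 5225 and 1269 without a fold threshold, and 757 to 1136, 2388 to 2968 and 278 to 1428 with single libraries left out. In SHT&MHT, leaving out a MHT library gave 317 (replicate 1), 401 (replicate 2) or 1428 (replicate 3), and a SHT library 457 (replicate 1) or 278 (replicate 3). The cause was not tested.

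The sign of small, uncalled values turned when single libraries were left out. In MHT&CK the ranges were -0.26 to 0.0084 for gene_15101 (highest without MHT replicate 3), -0.075 to 0.60 for gene_25631 (lowest without MHT replicate 2) and -0.38 to 1.41 for gene_12175. In SHT&MHT they were -0.21 to 0.13 for gene_16748, -0.24 to 0.077 for gene_16749, -0.24 to 0.076 for gene_20017 and -0.13 to 0.10 for gene_23793, which was also -0.0095 with only the compared groups.

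The lists are small and their counts moved with single libraries. In MHT&CK the ranges were 0 to 1 for aldehyde enzymes, 0 to 2 for catalases, 0 to 1 for laccases and 1 to 2 for peroxidases. In SHT&CK they were 1 to 4 for aldehyde enzymes, 0 to 1 for copper handling, 0 to 2 for GMC oxidases, 0 to 1 for catalases, 1 to 2 for other copper enzymes, 3 to 6 for peroxidases and 0 to 1 for galactose oxidases. In SHT&MHT they were 0 to 1 for GMC oxidases, 1 to 3 for laccases and 0 to 3 for peroxidases. Without a fold threshold the counts were 1 for copper handling in MHT&CK and SHT&CK, 1 for catalases and 2 for galactose oxidases in SHT&CK, and 3 for peroxidases in SHT&MHT. With only the compared groups they were 0 for catalases in MHT&CK, 0 for GMC oxidases and 1 for other copper enzymes in SHT&CK, and 1 for GMC oxidases and 0 for peroxidases in SHT&MHT. Without a filter GMC oxidases had 0 and other copper enzymes 1 in SHT&CK. DESeq2 gave 1 for other copper enzymes in SHT&CK, 1 for GMC oxidases and 2 for peroxidases in SHT&MHT. In SHT&CK it also called 2 peroxidases higher and 4 lower, and 3 aldehyde enzymes higher and 1 lower. For settings other than DESeq2 and single libraries left out, the block by replicate number included, smaller changes of a count are not listed.

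Deviations from the group means correlated over 0.1 in 1 of 9 same-numbered pairs (r from -0.23 to 0.44), that of MHT and SHT replicate 1. Differently numbered pairs had r from -0.47 to 0.26. With 3 libraries a group these values cannot settle whether the replicate numbers pair the samples. With the replicate number as a block, DEGs numbered 990 in MHT&CK, 2767 in SHT&CK and 641 in SHT&MHT, no other oxidase was called, and the lists had 0 GMC oxidases and 1 other copper enzyme in SHT&CK and 1 laccase in SHT&MHT. gene_422 had 4.09, 2.35 and -1.74. Counts of 29 to 106 per library in gene_8961 and gene_18152 limit the precision of their values.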
